A study of Nothobranchius furzeri with 12 samples.

Results

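In the tail fin of the turquoise killifish, Nothobranchius furzeri, 74 of 15170 tested entries of the deposited table (0.488%) stood higher in strain MZCS002 than in strain GRZ-BELL by a rule on size, separation and likeness of coloured tails and females. The entries were chosen on these same libraries. An entry was taken when its mean of log2(normalized reads + 1) was at least 1.5 higher in red tails of MZCS002 than in yellow tails of GRZ-BELL, and at least 1.5 higher in MZCS002 females than in GRZ-BELL females. The lowest of the 6 MZCS002 libraries also had to lie above the highest of the 6 GRZ-BELL libraries, and coloured tails and females had to differ by less than 1 on the log2 scale in each strain. The strain difference of these genes is therefore their definition, and it is described here without a test.

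The 4 groups held 3 biological replicates each: MZCS002 red tails, MZCS002 females, GRZ-BELL yellow tails and GRZ-BELL females. RNA came from the coloured area of the tail fin, or from the same area of the fin in females, and reverse transcription started from oligo-dT primers. The labels give no age, no treatment and no genetic change for any group, and they do not state the sex of fish with a coloured tail. Red tails came only from MZCS002 and yellow tails only from GRZ-BELL, so strain and tail colour cannot be told apart among the coloured tails, whereas the females differed in strain without a tail colour. A further number in the sample descriptions, which no source used here explains, also differed between the strains and cannot be told apart from strain.

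The turquoise killifish is an annual fish of temporary ponds in southeastern Africa, and GRZ is a laboratory strain known for its very short life. A fish fin is built of bony rays, connective tissue, vessels and nerves under a stratified epidermis, whose cells are renewed throughout life. Genes of cell division are transcribed periodically, in step with the phases of the cell cycle.

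Recovered reads ran from 5495553 to 17053983 per library, so that 3 reads equalled between 2.04 and 9.43 normalized reads. The shallowest library, MZCS002 female 2, correlated with its own group at a mean r of 0.847 across genes, against 0.895 to 0.957 in the other 11 libraries. The fin was recognisable in all 12 libraries: the actinotrichia gene and1 was at 408 or more normalized reads and the epithelial adhesion gene epcam at 12493 or more in each.

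Of the 15170 tested entries, 203 passed both strain differences, 114 of these had no overlap between the strains, and 74 also met the limit on tails against females. The same rule with the strains exchanged took 89 entries, after 215 and 131 at the earlier steps. The table of RefSeq genes (assembly NfurGRZ-RIMD1) gave a match for 38 of the 74 entries (51.4%), all of them protein coding, against 72.3% of all tested entries and 58.4% of the 89 entries higher in GRZ-BELL. Only 24 of the 74 had a gene symbol, 14 had a LOC number in its place, and 36 (48.6%) are known here by their transcript identifier alone. The genes with a symbol encode proteins of cell division, of mitochondria, of translation and transcription, and of membranes and vessels. Among the members with known places on the assembly, no neighbouring genes were both members. The nearest such pair, tbpl1 and si:dkey-71h2.2, lay 19 genes apart. The 36 entries without a match could not be placed, so whether they are neighbours is not known.

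**Figure D1:**
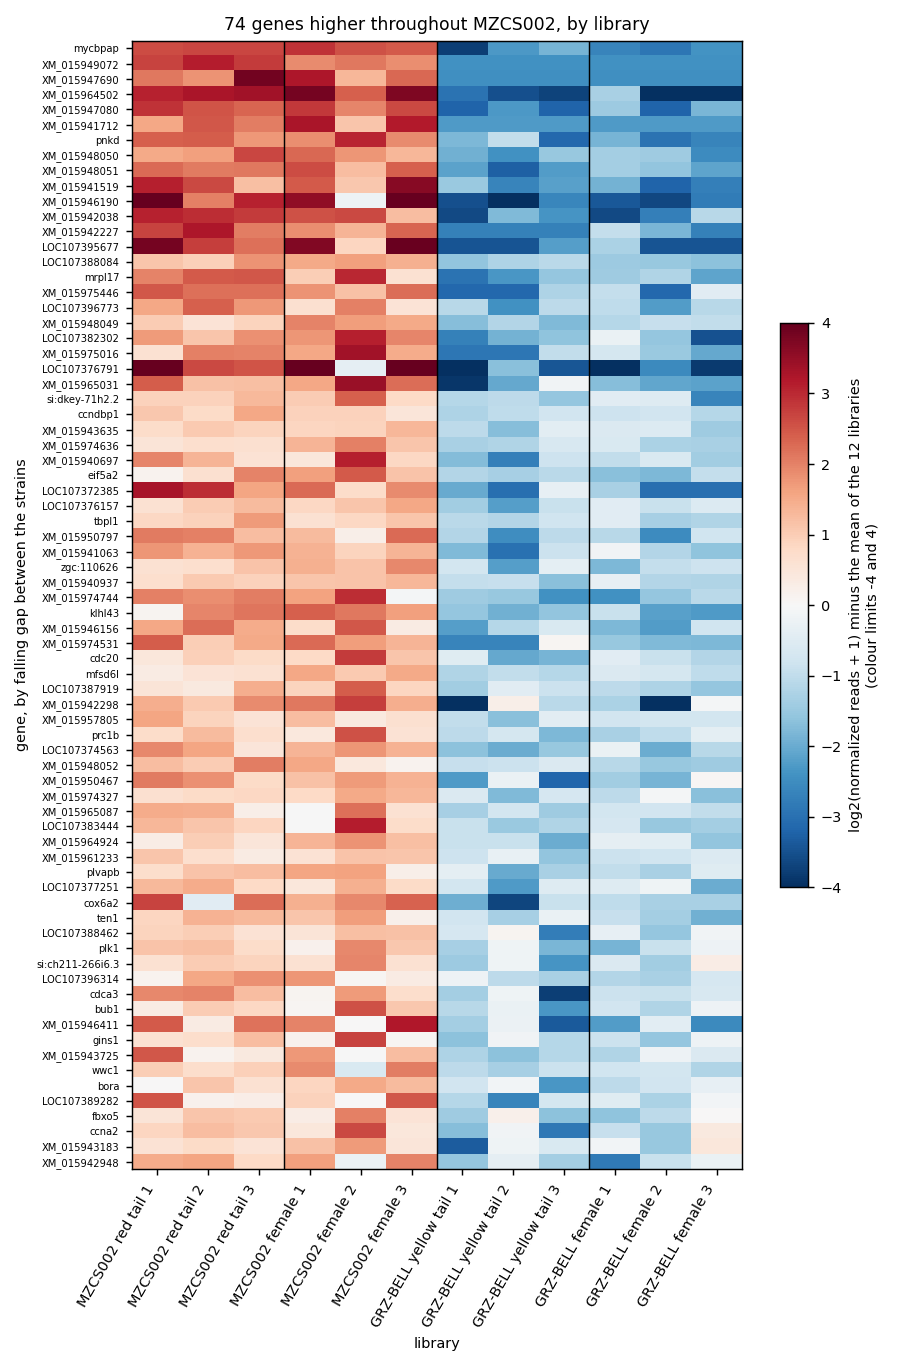
Each row is 1 of the 74 genes, each column 1 library, and the colour is log2(normalized reads + 1) minus the gene's mean over the 12 libraries, with colour limits at -4 and 4. Rows run from the widest gap between the strains (mycbpap, 4.30) to the narrowest (0.0070), and MZCS002 libraries lie to the left. The colours change more with strain than with coloured tail or female because the rule chose the rows for this.

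The strain difference, taken as the mean of the tail and the female difference, ran from 1.64 to 6.93 on the log2 scale with a median of 2.56, against a median of -0.018 over all tested entries. It was at least 4 for 17 genes, between 2 and 4 for 40 and under 2 for 17. In limma, with Benjamini-Hochberg adjustment over all tested entries, 3.95% of all entries were called higher in MZCS002 over both kinds of fish, 73 of the 74 among them, and 3.92% were called lower. Red against yellow tails gave 3.85% of entries called higher, 61 of the 74 included. The comparison of females alone called only 0.817%, and 44 of the 74, and these 44 were called in all 3 fits. The rule used these same contrasts, so the counts describe the entries and lend them no support. A complete separation of the strains with MZCS002 higher was found for 1.83% of all tested entries.

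**Figure D2:**
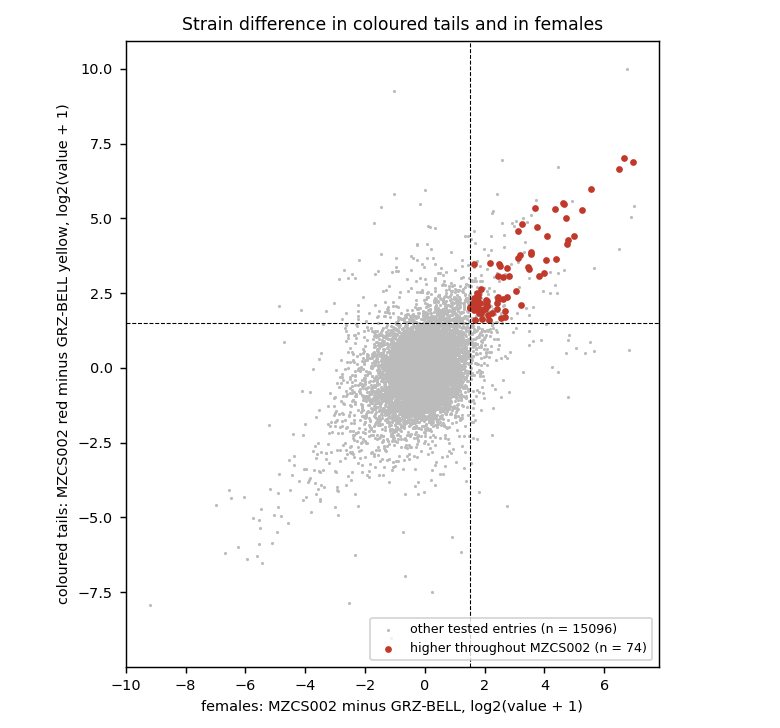
Each point is 1 tested entry, with the MZCS002 minus GRZ-BELL difference of log2(normalized reads + 1) in females on the horizontal axis and in coloured tails on the vertical axis. The 74 genes (red) lie beyond the dashed lines at 1.5 because they were chosen there, and grey points in the same corner overlapped between strains or differed between tails and females.

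Within a strain, coloured tails and females were close, as the rule required. Red tails minus MZCS002 females ran from -0.90 to 0.97 with a median of -0.10, and red tails were the higher in 31 of 74 genes. Yellow tails minus GRZ-BELL females ran from -0.99 to 0.65 with a median of -0.18, and yellow tails were the higher in 18 of 74. The strain difference was larger in coloured tails for 43 genes and in females for the other 31. The tail difference minus the female difference ran from -1.11 to 1.84. The rule bounded all these values, so nothing is read from their closeness.

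The widest gap between the strains belonged to mycbpap, which encodes a protein that binds the MYC-binding protein. It had 80.9, 85.1 and 86.0 normalized reads in MZCS002 red tails and 98.8, 78.6 and 72.7 in MZCS002 females, against 0, 1.74 and 2.75 in GRZ-BELL yellow tails and 1.17, 0.833 and 1.56 in GRZ-BELL females. The 6 MZCS002 libraries thus lay within 1.36-fold of each other, the tightest of all 74 genes. The 6 GRZ-BELL libraries held 8 reads in all. The mean over 6 libraries was 83.7 ± 8.84 in MZCS002 and 1.34 ± 0.924 in GRZ-BELL (SD), a ratio of 62.3 and a log2 difference of 5.28 ± 0.38 (SE).

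The next gene with a symbol was pnkd, named after a movement disorder of humans caused by its mutation. It had 107, 110.0 and 68.6 normalized reads in MZCS002 red tails and 74.6, 169.7 and 76.8 in MZCS002 females, against 5.02, 9.55 and 1.37 in GRZ-BELL yellow tails and 4.70, 1.67 and 2.35 in GRZ-BELL females. Its highest library was the shallow MZCS002 female 2, but the other 5 MZCS002 libraries also stood far above GRZ-BELL. The ratio of the strain means was 24.6, a log2 difference of 4.45 ± 0.41 (SE).

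The gene mrpl17 encodes a protein of the large subunit of the mitochondrial ribosome. It had 121, 170.2 and 171 normalized reads in MZCS002 red tails and 60.2, 251 and 46.2 in MZCS002 females, against 3.01, 5.21 and 9.62 in GRZ-BELL yellow tails and 10.6, 12.5 and 6.25 in GRZ-BELL females. The red tails were alike and the MZCS002 females were not, and the strain difference was larger in tails (4.58) than in females (3.11). That excess was 1.46 ± 0.84 (SE), and limma did not call it. The translation factor gene eif5a2 encodes an isoform of eIF5A, the protein that carries the modified amino acid hypusine. It had 257, 365 and 942 normalized reads in MZCS002 red tails and 729.6, 1298 and 519 in MZCS002 females, against 103, 92.9 and 111 in GRZ-BELL yellow tails and 72.8, 66.6 and 122 in GRZ-BELL females. Its MZCS002 libraries spread 5.06-fold, yet the lowest was still above every GRZ-BELL library, and the log2 difference was 2.66 ± 0.32 (SE). The gene dohh, whose enzyme completes hypusine on eIF5A, was 1 of the 3 entries that only just missed the threshold, with a difference of 1.47 in coloured tails and 1.57 in females.

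Regulators of transcription and of the cell cycle were also among the members with tight groups. The gene tbpl1 encodes a relative of the TATA-binding protein that mouse spermatogenesis depends on. It had 44.8, 47.4 and 82.2 normalized reads in MZCS002 red tails and 37.7, 44.0 and 54.4 in MZCS002 females, against 11.04, 10.4 and 13.7 in GRZ-BELL yellow tails and 17.6, 9.16 and 10.2 in GRZ-BELL females. Only red 3 stood apart within its group, and the log2 difference was 2.00 ± 0.29 (SE). The gene ccndbp1 encodes a protein that binds cyclin D1. It had 218, 176 and 299 normalized reads in MZCS002 red tails and 193, 195 and 144 in MZCS002 females, against 43.2, 50.4 and 59.1 in GRZ-BELL yellow tails and 57.6, 59.97 and 46.1 in GRZ-BELL females. Each strain formed a narrow band with a wide space between them, a 3.87-fold ratio of the means and a log2 difference of 1.91 ± 0.20 (SE).

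Among the remaining members with a symbol, klhl43, of the kelch-like family, averaged 85.4 ± 34.4 normalized reads in MZCS002 and 6.49 ± 2.89 in GRZ-BELL (SD, n = 6 each), a 13.2-fold ratio. Red 1 was far below the other MZCS002 libraries, at 24.1 against 72.0 to 123.1, and still above the highest GRZ-BELL library, at 11.7. The gene ten1, named after its values were seen, encodes a subunit of the CST complex that acts at telomere ends. It averaged 67.7 ± 21.8 in MZCS002 and 14.4 ± 6.19 in GRZ-BELL, a log2 difference of 2.19 ± 0.33 (SE). The gene mfsd6l, of the major facilitator family of transporters, had 50.8, 59.4 and 62.6 normalized reads in MZCS002 red tails and 119.5, 84.9 and 118 in MZCS002 females, against 17.1, 20.0 and 17.9 in GRZ-BELL yellow tails and 27.0, 24.2 and 19.5 in GRZ-BELL females. Females exceeded coloured tails in both strains, by 0.87 on the log2 scale in MZCS002 and 0.34 in GRZ-BELL, and the tail difference of 1.60 was the lowest of all 74 genes.

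The gene wwc1 encodes KIBRA, an upstream component of the Hippo pathway. It had 238, 197 and 230.0 normalized reads in MZCS002 red tails and 444, 78.6 and 498 in MZCS002 females, against 57.2, 46.9 and 66.0 in GRZ-BELL yellow tails and 68.1, 71.6 and 50.8 in GRZ-BELL females. The shallow MZCS002 female 2 alone brought the strains near each other, and the gap on the log2 scale was 0.13. The members also included entries with a provisional zebrafish name. The strain means of zgc:110626 were 169 ± 60.5 normalized reads in MZCS002 and 34.9 ± 15.0 in GRZ-BELL (SD, n = 6 each), and those of si:dkey-71h2.2 were 27.1 ± 14.7 in MZCS002 and 4.27 ± 2.37 in GRZ-BELL. The entry si:ch211-266i6.3, at 488 ± 219 in MZCS002 and 146 ± 91.8 in GRZ-BELL, had a gap of 0.31, since GRZ-BELL female 3 reached 292.

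**Figure D3:**
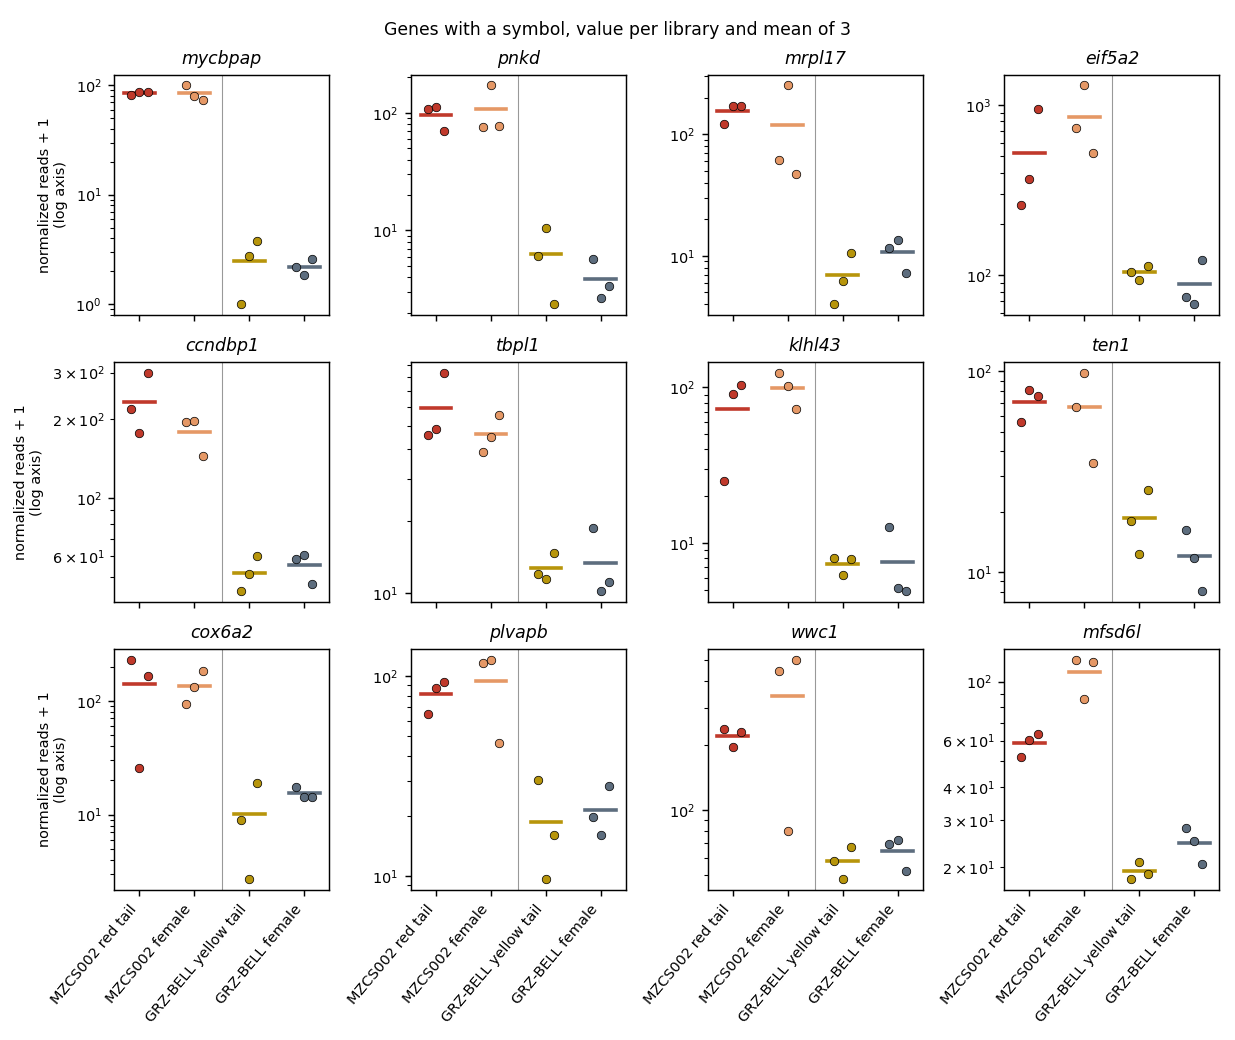
Points are single libraries, bars are means of 3, and the vertical axis is normalized reads + 1 on a log scale that differs between panels. Each panel is 1 of 12 members with a symbol, MZCS002 groups lie left of the vertical line and GRZ-BELL groups right of it, and no MZCS002 point falls to the level of a GRZ-BELL point.

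The gene cox6a2 encodes a subunit of cytochrome c oxidase, the last complex of the respiratory chain, in the isoform that mammals use in heart and skeletal muscle. It had 226, 24.9 and 164 normalized reads in MZCS002 red tails and 93.4, 132 and 180.1 in MZCS002 females, against 8.03, 1.74 and 17.9 in GRZ-BELL yellow tails and 16.4, 13.3 and 13.3 in GRZ-BELL females. Red 2 was close to the GRZ-BELL level while the other 5 MZCS002 libraries were well above it, for an 11.6-fold ratio of the means. The muscle creatine kinase gene ckma averaged 8.18 in red tails and 30.0 in MZCS002 females, against 0.959 in yellow tails and 7.27 in GRZ-BELL females. The fast muscle myosin light chain gene mylpfa averaged 2.15 in red tails and 48.6 in MZCS002 females, against 2.46 in yellow tails and 0.261 in GRZ-BELL females. These markers were thus highest in MZCS002 females. The rule bounded the difference of cox6a2 between red tails and those females, so its likeness there is not compared with these markers. The sum of 6 tested muscle genes ran from 31.7 to 68.9 normalized reads in MZCS002 red tails and from 75.4 to 419 in MZCS002 females, against 247 to 433 in GRZ-BELL yellow tails and 371 to 483 in females of GRZ-BELL. In limma, 0 of these 6 genes were called higher and ryr1b was called lower (log2 difference -5.42 ± 0.69, adjusted p = 4.5e-04, Benjamini-Hochberg). The list was split: 3 of the 6 were positive. Their median strain difference was 0.66, with -0.57 in coloured tails and 0.98 in females. Centred on each gene's mean, the median of the 6 genes by library overlapped between the strains. It ran from -0.97 to 2.56 in MZCS002 and from -0.95 to 0.85 in GRZ-BELL. The part of muscle RNA in the difference of cox6a2 was not tested.

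Of 77 nuclear genes of oxidative phosphorylation, 3 were called higher in MZCS002 and 1 lower, beside 3.95% and 3.92% of all tested entries. The median difference was 0.26, and 68 of the 77 were positive, beside 7382 of the 15170 tested entries. The median of the list by library, centred on each gene's mean, overlapped between the strains, at -0.66 to 0.78 in MZCS002 and -0.37 to 0.50 in GRZ-BELL. The 3 were cox6a2, cox4i2 and ndufaf3, an assembly factor of complex I. The gene cox4i2, an isoform of another cytochrome c oxidase subunit, was higher by 1.62 ± 0.24 (SE, limma, Benjamini-Hochberg adjusted p = 0.0012), and ndufaf3 by 1.52 ± 0.37 (adjusted p = 0.026). The gene cox5b2, of a further such subunit, was lower, at -1.90 ± 0.35 (limma, adjusted p = 0.0052). The list thus held calls in both directions, and cox6a2 is the only member on it.

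The gene plvapb encodes a protein of the diaphragms that span the pores of endothelial cells. It had 63.7, 85.9 and 92.7 normalized reads in MZCS002 red tails and 116, 119 and 45.5 in MZCS002 females, against 29.1, 8.68 and 15.1 in GRZ-BELL yellow tails and 18.8, 15.0 and 27.4 in GRZ-BELL females. Only MZCS002 female 3 came near the GRZ-BELL range. The sum over 9 tested vessel genes, plvapb among them, was 386 to 479 normalized reads in MZCS002 red tails and 564 to 638 in MZCS002 females, against 327 to 491 in GRZ-BELL yellow tails and 352 to 574 in females of GRZ-BELL. The sums overlapped between strains, and plvapb was the only one of the 9 genes that limma called. In whole fin tissue, more cells of a type and more RNA per cell cannot be told apart, here and in all results that follow.

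The largest set of members with a shared role served cell division: 9 of the 24 genes with a symbol act in mitosis or DNA replication. This grouping was made after their values were seen. The share of such genes among all tested entries with a symbol was not counted, so 9 of 24 is a description only. The polo-like kinase gene plk1 drives entry into and passage through mitosis, and bora encodes the cofactor through which that kinase is activated. The gene plk1 had 372, 387 and 278 normalized reads in MZCS002 red tails and 190.5, 635 and 358 in MZCS002 females, against 66.2, 149 and 46.7 in GRZ-BELL yellow tails and 45.8, 89.96 and 145 in GRZ-BELL females. Its strain difference was 2.09 ± 0.37 on the log2 scale (SE). The gene bora had 18.1, 39.4 and 27.9 in MZCS002 red tails and 33.2, 53.4 and 44.2 in MZCS002 females, against 10.0, 16.5 and 2.75 in GRZ-BELL yellow tails and 8.22, 10.0 and 14.1 in GRZ-BELL females. In both genes the strains separated without overlap, but the space between them was narrow, 0.35 for plk1 and 0.12 for bora.

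Exit from mitosis runs through the anaphase-promoting complex, which cdc20 activates and the product of fbxo5 inhibits. The gene cdc20 had 57.7, 81.9 and 71.6 normalized reads in MZCS002 red tails and 74.6, 302 and 91.8 in MZCS002 females, against 30.1, 9.55 and 10.99 in GRZ-BELL yellow tails and 30.5, 22.5 and 17.98 in GRZ-BELL females. The gene fbxo5 had 33.6, 51.4 and 49.0 in MZCS002 red tails and 28.8, 97.4 and 34.7 in MZCS002 females, against 8.03, 26.9 and 6.87 in GRZ-BELL yellow tails and 7.05, 10.8 and 23.5 in GRZ-BELL females. MZCS002 female 2 was the highest library for both. The gap was widest of the 9 for cdc20, at 0.90, and 0.09 for fbxo5.

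Cyclin A, encoded by ccna2, acts in S phase and G2, and the kinase encoded by bub1 serves the spindle checkpoint at kinetochores. The gene ccna2 had 285, 365 and 329 normalized reads in MZCS002 red tails and 212, 974 and 213 in MZCS002 females, against 47.2, 141 and 20.6 in GRZ-BELL yellow tails and 82.2, 53.3 and 202 in GRZ-BELL females. The gene bub1 had 99.9, 161 and 140.2 in MZCS002 red tails and 83.6, 468 and 169.9 in MZCS002 females, against 36.1, 65.1 and 15.1 in GRZ-BELL yellow tails and 45.8, 34.2 and 68.0 in GRZ-BELL females. For ccna2 GRZ-BELL female 3 nearly reached the lowest MZCS002 libraries, with a gap of 0.07.

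The other members of the group were prc1b, which bundles microtubules of the central spindle, cdca3, a trigger of mitotic entry, and gins1, a subunit of the GINS complex of the replicative helicase. The gene prc1b had 123.1, 179 and 117 normalized reads in MZCS002 red tails and 97.9, 437 and 110.1 in MZCS002 females, against 35.1, 44.3 and 20.6 in GRZ-BELL yellow tails and 29.4, 35.8 and 55.5 in GRZ-BELL females. Tails and females differed most in cdca3, whose red tails averaged 233 ± 61.6 and whose MZCS002 females averaged 138 ± 79.3, against 30.0 ± 28.1 in GRZ-BELL yellow tails and 39.1 ± 3.42 in GRZ-BELL females (SD, n = 3 each). The gene gins1 averaged 324 ± 77.5 in MZCS002 red tails and 511 ± 551 in MZCS002 females, against 98.3 ± 53.8 in GRZ-BELL yellow tails and 102 ± 46.1 in GRZ-BELL females, and its wide spread in MZCS002 females came from female 2 at 1147.

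**Figure D4:**
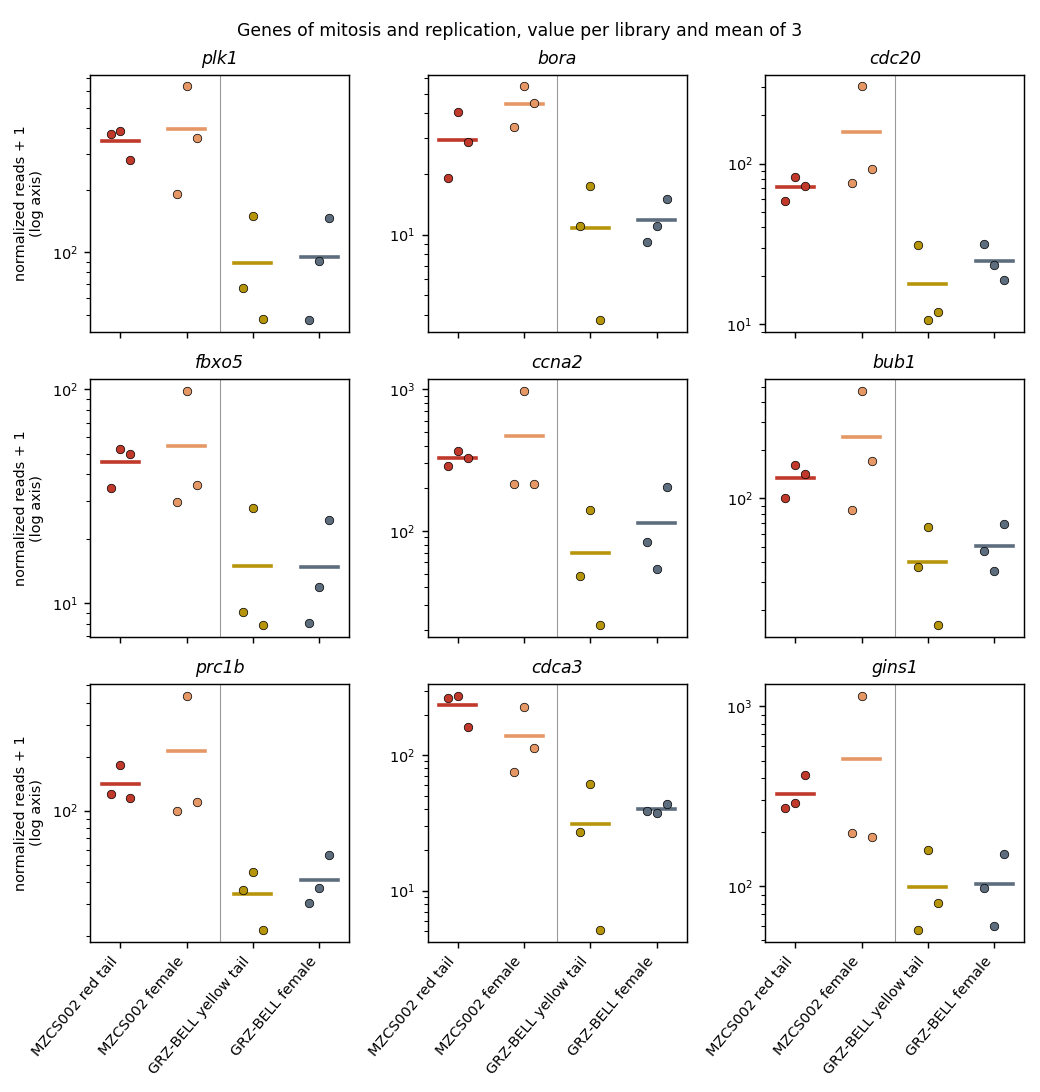
Points are single libraries, bars are means of 3, and the vertical axis is normalized reads + 1 on a log scale that differs between panels. In 8 of the 9 panels the highest MZCS002 point is female 2, and in 6 the lowest GRZ-BELL point is yellow 3.

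The 9 genes moved together from fish to fish. Over the 12 libraries, the deviations from the group means correlated with a median Pearson r of 0.777 over the 36 pairs of these genes (0.145 to 0.923). The 2080 pairs of the other 65 members had a median of 0.022. They ran from -0.90 to 0.95, so single pairs among them moved together as closely. Without MZCS002 female 2 the medians were 0.752 and 0.037, and the lowest of the 36 values was -0.59. Pairs share their libraries and genes, so these values are descriptions. Summed over the 9 genes, red tails held 1522 to 1829 normalized reads and MZCS002 females 992 to 4340, against 208 to 671 in GRZ-BELL yellow tails and 352 to 721 in females of GRZ-BELL. The rule set each gene apart by strain, so it also fixed the separation of these sums.

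Part of the female difference of these 9 genes came from the shallow MZCS002 female 2. That library was the highest of MZCS002 for 8 of them and at least 1.5 times the next for 7. The part was smallest for bora, whose female difference went from 1.93 to 1.77 without it, and largest for gins1, from 1.86 to 1.01. Without MZCS002 female 2, only plk1 (female difference 1.62), bora (1.77) and cdc20 (1.79) kept a female difference of 1.5 and stayed within the rule. For the other 6 the female difference was 1.01 to 1.40, where it had been 1.64 to 2.08 with all libraries. Yellow 3 was the lowest GRZ-BELL library for 6 of the 9, and without it 7 met the rule, while bora and bub1 had tail differences of 1.02 and 1.42. Without both libraries, 2 of the 9 met it.

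Of the cell cycle list of 31 genes, 24 were tested, and limma called 11 higher and 1 lower in MZCS002 (Benjamini-Hochberg), with a median difference of 1.06 and 23 of 24 above 0. Since 4 of the 24 are members, the other 20 are also given apart. Of these, 7 were called higher, 19 were above 0, the inhibitor genes cdkn1a and cdkn1d among them, and the median was 0.83. These inhibitor genes differed in sign between coloured tails (1.09 for cdkn1a and 3.12 for cdkn1d) and females (-0.54 and -1.67). Over all 15170 tested entries 3.95% were called higher, 7382 were above 0 and the median was -0.018. The genes cenpf and ccnb1 failed the rule only by its limit on tails against females. All values come from the libraries that chose the members, so these counts are descriptions. The mitotic kinase gene cdk1 was higher by 2.32 ± 0.41 (SE, limma, adjusted p = 0.0041), and the cyclin B genes ccnb1, ccnb2 and ccnb3 by 2.38 ± 0.51, 1.76 ± 0.38 and 1.45 ± 0.33 (adjusted p = 0.013, 0.013 and 0.017). The kinetochore gene cenpf was higher by 2.68 ± 0.66 (adjusted p = 0.026), the spindle assembly gene tpx2 by 1.94 ± 0.42 and the proliferation marker mki67 by 2.14 ± 0.46 (adjusted p = 0.014 for both, limma). For cenpf, MZCS002 female 2 had 8854 normalized reads, against 342 to 886 in the other 5 MZCS002 libraries, and without that library the difference was 1.94 (adjusted p = 0.0021, limma). Without MZCS002 female 2, the same 11 genes of the list were called and the median was 0.97. Leaving out each library in turn gave 9 to 14 calls.

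The cyclin-dependent kinase 1 transcript showed how far single fish departed from the strain average. The gene cdk1 had 1157, 1503 and 768 normalized reads in MZCS002 red tails and 416, 930.3 and 413 in MZCS002 females, against 95.3, 248 and 46.7 in GRZ-BELL yellow tails and 199.7, 137 and 434 in GRZ-BELL females. Red and yellow tails lay far apart, whereas GRZ-BELL female 3 was above a pair of MZCS002 females. Of the 24 genes, 9 were called higher in red against yellow tails and 1 in MZCS002 against GRZ-BELL females. Over all tested entries these comparisons called 3.85% and 0.817% higher. The median difference of the 24 genes was 1.525 in coloured tails and 1.238 in females. Whether the counts of 9 and 1 differ was not tested. The median of the 24 genes, centred on each gene's mean, was lowest among MZCS002 libraries in female 1 (0.11 on the log2 scale) and highest among GRZ-BELL libraries in female 3 (0.25), so the strains overlapped on the list as a whole.

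Of the genes on the list that were not called, kif11, aurkb and bub1bb act in mitosis, with differences of 1.22, 0.78 and 0.43 (limma, adjusted p = 0.067, 0.24 and 0.38). The 5 tested mcm genes, subunits of the replicative helicase, differed by 0.36 to 0.91 on the log2 scale with standard errors of 0.38 to 0.49, and 0 were called in limma with all libraries, in edgeR or in DESeq2. Their unadjusted limma p-values ran from 0.059 to 0.48, so 0 fell under 0.05. Leaving out yellow 2, the GRZ-BELL library in which all 5 were highest, led to 1 call in limma. Whether genes of replication and of mitosis differed from each other was not tested. The inhibitor gene cdkn1bb, of the p27 family, was the list's only gene called lower, at -0.90 ± 0.18 (SE, limma, Benjamini-Hochberg adjusted p = 0.0099). It averaged 196 ± 42.0 normalized reads in MZCS002 and 363 ± 44.2 in GRZ-BELL (SD, n = 6 each).

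**Figure D5:**
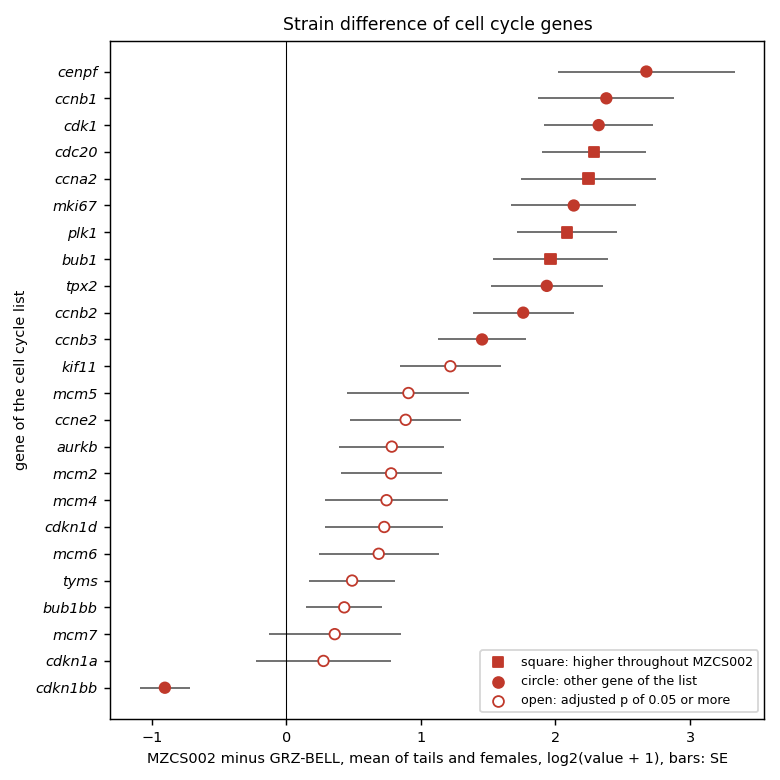
Each row is 1 of the 24 tested genes of the cell cycle list, the horizontal axis is the MZCS002 minus GRZ-BELL difference of log2(normalized reads + 1) averaged over tails and females, and bars are the standard error from limma. Squares are the 4 members, filled symbols have a Benjamini-Hochberg adjusted p under 0.05, and open symbols with the mcm genes lie between 0.28 and 1.22.

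Most of the other lists of cell types and processes gave few calls for the same strain contrast. Apart from plvapb and cox6a2, none of their genes was a member. Of all 15170 tested entries, 3.95% were called higher and 3.92% lower, and 7382 had a positive difference. Limma called 1 of 9 epidermal genes higher, 1 of 13 fibroblast and matrix genes lower and 1 of 17 leukocyte genes lower. It also called 1 of 5 complement and lectin genes lower, 1 of 19 antioxidant genes lower and 1 of 19 pigment cell genes in each direction. The pigment cell gene called higher, pax3a, differed by 9.27 in coloured tails and by -1.03 in females. The pigment cell gene called lower, ltk, differed by -1.53 in coloured tails and by -0.61 in females. Of 10 erythrocyte genes 3 were called lower and 0 were positive. Their median difference was -1.42, with -2.34 in coloured tails and -0.42 in females. The summed level of all 10 was 690 to 1016 normalized reads in MZCS002 red tails and 523 to 597 in MZCS002 females. It was 1737 to 2604 in GRZ-BELL yellow tails and 546 to 1084 in females of GRZ-BELL. Limma called 0 of 13 fin ray, 13 antigen presentation, 10 interferon, 5 nerve, 15 xenobiotic enzyme, 16 heat shock, 68 cytosolic ribosomal protein and 20 clock genes. The clock genes had a median difference of -0.64, and of -1.15 in coloured tails, and 5 of 20 were positive. Their centred median by library was -0.81 to -0.27 in MZCS002 red tails and -1.14 to 0.93 in MZCS002 females, against 0.49 to 1.30 in GRZ-BELL yellow tails and -0.24 to 0.088 in females of GRZ-BELL. The coloured tails did not overlap and the females did. The ribosomal protein genes had a median difference of -0.87 in coloured tails and 0.63 in females. The part of erythrocyte content in the members' strain differences was not tested.

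For 3 entries known by identifier only, the 6 GRZ-BELL libraries held no read at all. XM_015949072 had 33.6, 46.6 and 36.2 normalized reads in MZCS002 red tails and 18.9, 22 and 18.4 in MZCS002 females, or 200 reads in all, and was at least 9.70-fold higher in MZCS002 against a floor of 3 reads in each GRZ-BELL library. XM_015947690 had 22.4, 17.7 and 77.7 in MZCS002 red tails and 50.3, 12.6 and 25.8 in MZCS002 females, which was at least 11.4-fold higher. XM_015941712 had 12.9, 25.7 and 18.8 in MZCS002 red tails and 44.9, 9.43 and 42.1 in MZCS002 females, at least 8.503-fold higher. Floors and counting intervals cover counting error only, since reads that carry no molecular identifier are not independent molecules. Of the 74 members, 20 had at least 1 GRZ-BELL library without a read, and in 10 the highest GRZ-BELL library had at most 3 reads. XM_015942227 had 233 reads in MZCS002 and 3 in GRZ-BELL, and the ratio of its normalized means was 61.8. The ratio of its pooled reads, scaled by the size factors of the libraries, had a 95% counting interval of 24.6 to 355.

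A few members were near absent from GRZ-BELL and also very uneven within MZCS002. LOC107376791 had 1408, 156 and 142 normalized reads in MZCS002 red tails and 472, 18.9 and 1631 in MZCS002 females, against 0, 6.95 and 1.37 in GRZ-BELL yellow tails and 0, 3.33 and 0.782 in GRZ-BELL females. XM_015946190 had 861, 93.2 and 195 in MZCS002 red tails and 269, 18.9 and 2637 in MZCS002 females, against 1.00, 0 and 2.75 in GRZ-BELL yellow tails and 1.17, 0.833 and 2.35 in GRZ-BELL females. The MZCS002 libraries spanned 86.5-fold and 139.8-fold in these entries, with red 1 and female 3 high and female 2 lowest in both. LOC107395677 also had its lowest MZCS002 value in female 2, at 18.9, with the other 5 at 49.0 to 167, against 0 to 3.52 in GRZ-BELL. Most members were steadier: the highest MZCS002 library was under 2-fold the lowest in 10 genes, between 2-fold and 10-fold in 60 and above that in 4.

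Some of the other LOC entries were high enough in both strains for their bands to be read. LOC107388084 averaged 224 ± 47.9 normalized reads in MZCS002 and 30.6 ± 4.92 in GRZ-BELL (SD, n = 6 each), with narrow bands in both. LOC107374563 averaged 563 ± 165 in MZCS002 and 82.5 ± 44.3 in GRZ-BELL, and LOC107387919 averaged 496 ± 316 in MZCS002 and 97.9 ± 28.1 in GRZ-BELL. LOC107383444 had a mean of 709.1 ± 682 in MZCS002 and 106 ± 26.2 in GRZ-BELL, and its MZCS002 spread came from female 2 at 2077 against 232 to 601 in the other 5. The strain differences of LOC107396773, LOC107382302, LOC107372385 and LOC107376157 were 2.97, 3.83, 4.24 and 2.12 on the log2 scale. In GRZ-BELL, LOC107382302 had 32 reads in all and LOC107372385 had 7, so the size of their differences is poorly known. With a pseudocount of 5 the difference of LOC107372385 was 2.69.

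A run of 4 members carried consecutive identifiers, XM_015948049 to XM_015948052, which the gene table did not match. Their strain differences were 2.55, 3.73, 4.23 and 2.14 on the log2 scale. XM_015948052 had the highest level of all members, at 2297 ± 1113 normalized reads in MZCS002 and 482 ± 121 in GRZ-BELL (SD, n = 6 each). The sources used here do not say how the 4 transcripts relate, so near-identical copies could have shared reads and they may not be 4 independent genes.

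The spread between libraries was of the same order in both strains. The SD of log2(normalized reads + 1) over 6 libraries had a median of 0.64 in MZCS002 and 0.67 in GRZ-BELL over the 74 genes, against 0.57 and 0.40 over all tested entries. The space between the strains was at least 1 on the log2 scale for 35 genes and under 0.5 for 18. It was smallest for XM_015942948, at 0.0070, where MZCS002 female 2 had 18.9 and GRZ-BELL female 3 had 18.8 normalized reads. MZCS002 female 2 was the highest MZCS002 library for 31 of the 74 genes and the lowest for 21, so it stood at an end for 52 of them. Just inside the threshold lay XM_015957805 and XM_015943183, with female differences of 1.50 and 1.52, and mfsd6l with a tail difference of 1.60. Just outside lay zgc:85932, dohh and smurf1, the last a ubiquitin ligase gene, with tail differences of 1.498, 1.47 and 1.45.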

How the data were processed

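The authors deposited a table of normalized read counts for 12 tail fin libraries, here called a signal because each value is a count divided by the library's size factor. The submitters' processing notes name Trimmomatic, STAR, featureCounts and DESeq2, in no stated role or order. The sources used here give no version, genome build, strand setting or filter. In all 12 libraries 100% of the nonzero values were whole multiples of the value of 1 read, within 0.01 of a read, so whole reads were recovered. All 20788 entries carry a RefSeq transcript identifier. A table of RefSeq genes from assembly NfurGRZ-RIMD1 gave names to 14145 of them (68.0%), and no coordinates are given because the build of the deposited table is not stated.

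Entries with a mean of at least 10 (15170) were fitted with limma 3.58.1 in R 4.3.3 (eBayes with trend, 2-sided) on log2(value + 1), with all 12 libraries in 1 fit and the group as its only term. Calls required a Benjamini-Hochberg adjusted p under 0.05. A difference on this scale understates the change of low genes. The strain average is the mean of red minus yellow tail and MZCS002 minus GRZ-BELL female. A count test on the recovered reads called 670 entries higher and 617 lower in MZCS002 with edgeR 4.0.16, against 599 and 594 in limma, and 1207 and 1042 with DESeq2 1.42.0. The fit was also run on simulated counts with planted strain differences. These counts were drawn for each gene on its own, so they do not show how the fit handles genes that move together.

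The 74 members, the 20 gene lists and the rule for named genes were chosen with earlier results of these data known. The rule named the 20 members with a symbol or LOC number and the widest gap, the 10 highest in MZCS002, members on a list, adjacent members, the 3 nearest on each side of the threshold of 1.5, and members without a GRZ-BELL read. The genes ten1, bora, fbxo5 and cdca3 and the unnamed entries beyond this rule were picked after their values were seen. The alternatives were other scalings, pseudocounts, filters, tests, the replicate number as a block and each library left out in turn. The list of DNA repair and telomere genes is not reported here, and sequences are not shown.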

Additional observations from a re-analysis of the deposited data

How the results depend on the processing

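Of 618 values of the strain difference of the 35 named members, 10, all of them at a pseudocount of 0.5 or 5, moved by more than 1 SD of the libraries. Their sign was fixed by the choice of members. Counts of calls over all entries depended on the settings. DESeq2 called 1207 entries higher and 1042 lower over both kinds of fish, 1211 higher in red against yellow tails and 452 higher among females. With a mean of at least 50, 370 were called lower, 72 higher among females, and 41 of the 74 members were left, since the others lie under that mean. Leaving out 1 library at a time gave 344 to 858 called higher and 327 to 901 called lower over both kinds of fish, 180 to 1360 in red against yellow tails and 63 to 178 among females, with the highest count of each without MZCS002 female 2.

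Membership also depended on the settings. With TMM factors 73 entries met the rule, 71 of them shared with the 74, and with equal totals 56 did, 48 of them shared and 4 of these among the 9 genes of mitosis and replication. The median strain difference of all entries was -0.018 as deposited, -0.032 with TMM factors and -0.069 with equal totals, where it was 0.093 in tails and -0.23 in females. Pseudocounts of 0.5 and 5 gave 66 and 74, 65 shared in each case. With no filter on the mean 100 met the rule, 26 of them under a mean of 10. With 1 library left out 71 to 100 did, and 18 of the 74 stayed in every case, plk1, mycbpap, tbpl1, ten1, ccndbp1 and plvapb among them. Without MZCS002 female 2 there were 75, 53 of them shared, and without both that library and yellow 3, a choice made after seeing the data, 67 with 41 shared. With the replicate block 485 entries were called higher and 473 lower. Same-numbered libraries did not deviate together: 3 of 18 pairs had a correlation above 0.1, and 2 of 12 libraries correlated best with their own number.

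With 3 libraries a group, p-values measure the spread between these fish only. In MZCS002 female 2, 3 reads equal 9.43 normalized reads, so low values there are coarse. In GRZ-BELL many members lie at a few reads, where the size of a fold is poorly known.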
